A study of Rattus norvegicus with 16 samples.

Results

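Oltipraz (OLT) and its unsubstituted parent ring, D3T, were compared in rat liver at the same dose and the same times, on 8 of the 16 arrays of the series: the 4 arrays titled D3T and the 4 titled OLT. The arrays were chosen by those titles alone, and every probe set on them was considered. Both compounds are dithiolethiones. D3T carries no substituent on the ring, and a methyl and a pyrazinyl group are attached to it in OLT.

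Liver RNA came from male F344 rats, 6 weeks old on arrival, singly housed and assigned to groups at random. D3T and OLT were given by gavage at 0.3 mmol/kg in a sucrose vehicle, as 3 doses within 5 days, 1 every other day, with the liver removed 24 h after dosing ended. The 4 control animals, titled untreated but given sucrose vehicle per the protocol, serve here to show where each level started. The fourth group received another dithiolethione at this dose, abbreviated TBD, and enters the fit through its spread.

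Dithiolethiones are known for releasing the transcription factor NRF2 from its repressor KEAP1. NRF2 then binds antioxidant response elements and raises glutathione transferases, quinone reductases and other enzymes that detoxify electrophiles. Oltipraz is also known as an inducer of cytochromes P450 in rat liver, where the nuclear receptors CAR and PXR control the CYP2B and CYP3A families and the aryl hydrocarbon receptor controls the CYP1A family. The comparison asks where the addition of the methyl and pyrazinyl groups goes with a different liver response.

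Differences are D3T minus OLT on the log2 scale with the SE of the fit, so a positive value means a higher level with D3T. A probe set was called different when limma's adjusted p, over all 5323 probe sets tested, was below 0.05. By this rule 57 probe sets (1.07%) differed between the compounds, 21 higher with D3T (0.395%) and 36 higher with OLT (0.676%). In genes, each taken at its brightest probe set, 27 of 3104 differed (0.87%), 9 higher with D3T (0.29%) and 18 higher with OLT (0.58%). Of these, 2 and 13 differed at least 2-fold. Leaving out 1 array gave 12 genes (without D3T array 4) to 22 (without OLT array 2), with 5 to 18 probe sets higher with D3T, and array weights gave 90 genes. For all 27 genes the 4 D3T arrays lay wholly above or wholly below the 4 OLT arrays, and the same held for 232 of all genes tested (7.47%). At an unadjusted p below 0.05 the count was 372 genes (12%). The direct difference was small beside what each compound changed. D3T altered 550 genes against vehicle (17.7%) and OLT altered 358 (11.5%), in comparisons that share the 4 vehicle arrays. Most genes changed by a compound fell: 407 of 550 with D3T (13.1% of all genes, with 4.61% higher) and 277 of 358 with OLT (8.92%, with 2.61% higher). The split by direction between the compounds moved with scaling, since 48 of 92 called probe sets were higher with D3T after renewed quantile normalization and 13 of 46 after the array medians were centred.

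**Figure D1:**
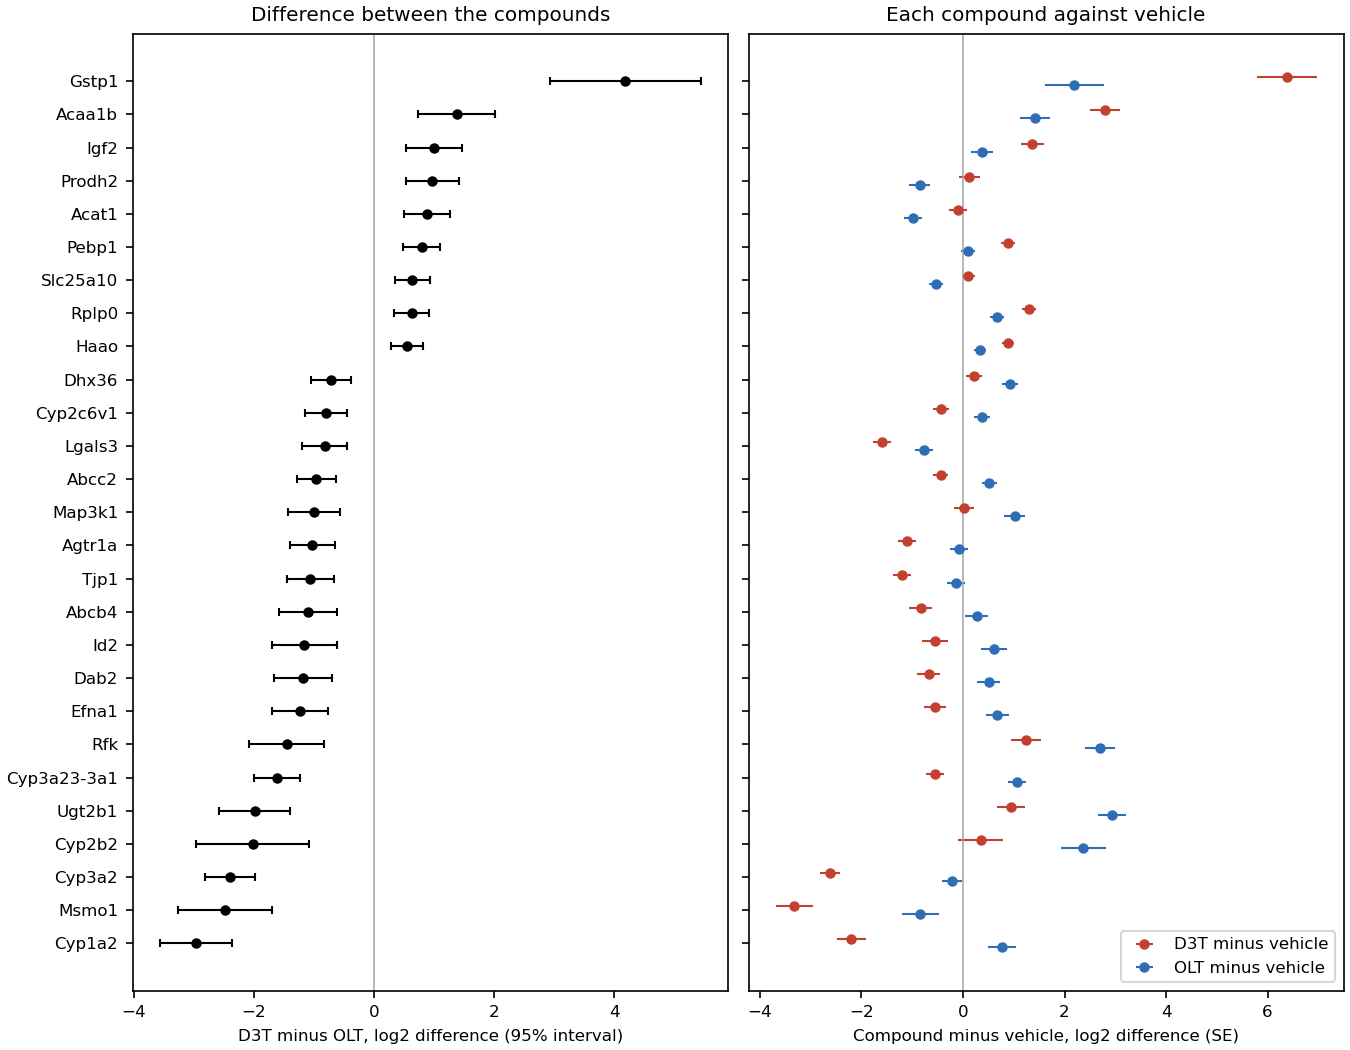
The left panel plots the log2 difference D3T minus OLT with its 95% interval for the 27 called genes, and the right panel plots each compound minus vehicle with its SE for the same genes (n = 4 arrays per group). Gstp1 stands farthest to the D3T side at 4.18 and Cyp1a2 farthest to the OLT side at -2.96. On the right, Gstp1 was above vehicle with both compounds, while Cyp3a23-3a1 was above vehicle with OLT and below it with D3T.

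The arrays of the 2 groups separated along the first principal component, which carried 37.7% of the variance of these 8 arrays. The D3T arrays lay close together at 11.3 to 13.1, and the OLT arrays spread from -22.6 to -0.87. The median SD over probe sets was 0.105 among the D3T arrays and 0.186 among the OLT arrays, and the OLT SD was the larger at 79.5% of probe sets. Arrays correlated at r of 0.994 to 0.997 within D3T, 0.986 to 0.994 within OLT and 0.987 to 0.992 between the groups, over probe sets, which are not independent replicates. Array medians ran from 3.43 to 3.53 with D3T and from 3.28 to 3.54 with OLT. The fit uses 1 common spread, so a gene that varied among the OLT animals has a wider interval. Each array held RNA of a different animal, so the spread combines animal and technical error.

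**Figure D2:**
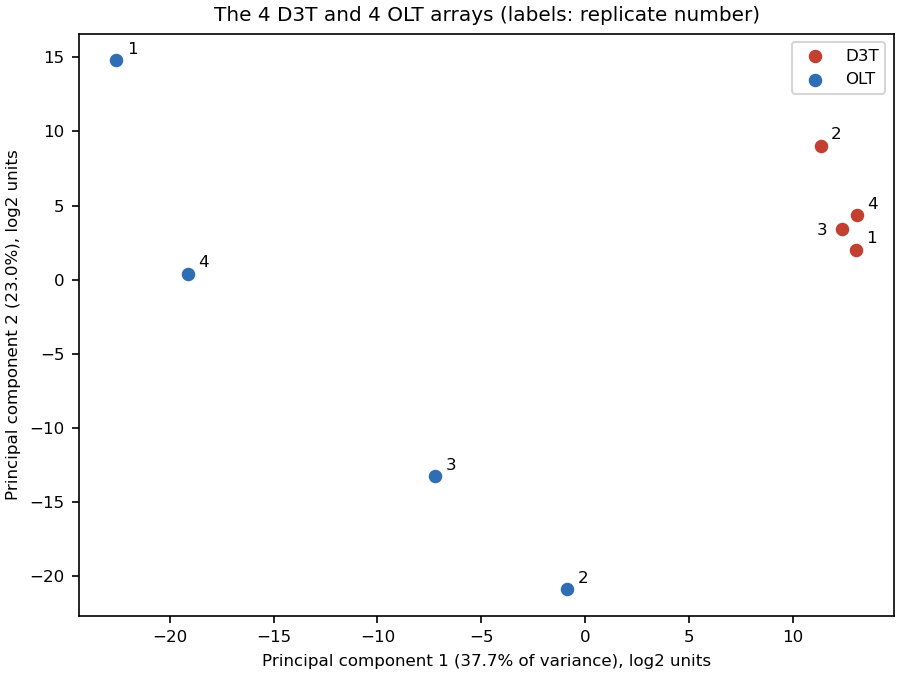
Each point is 1 array, placed by its first and second principal components in log2 units, computed over the 4 D3T and 4 OLT arrays and labelled by replicate number. The D3T arrays form a tight cluster at 11.3 to 13.1 on the horizontal axis, while OLT arrays 1 and 4 lie at -22.6 and -19.1 and OLT arrays 3 and 2 at -7.23 and -0.87.

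The promoters of 3 genes are shown before the values, because their genes differed between the compounds and their windows hold the letters of elements known from this biology. Gstp1 encodes the pi-class glutathione transferase and led the genes higher with D3T. Cyp3a2 and Cyp3a23-3a1, neighbouring steroid and drug oxidising cytochromes P450, were among those higher with OLT. The sequences are the 250 bases before the annotated start in RefSeq, build GRCr8, written 5′ to 3′ on the gene's own strand. In Gstp1, at chr1:210769706-210769955 on the minus strand, the capitals mark a match to the core antioxidant response element, spelled TGACNNNGC. In Cyp3a2, at chr12:14343858-14344107, and Cyp3a23-3a1, at chr12:14398804-14399053, both on the minus strand, they mark a direct repeat of AGTTCA with a gap of 3 bases, read on the opposite strand. Such a repeat, abbreviated DR3, is known as a binding form of PXR.
Gstp1: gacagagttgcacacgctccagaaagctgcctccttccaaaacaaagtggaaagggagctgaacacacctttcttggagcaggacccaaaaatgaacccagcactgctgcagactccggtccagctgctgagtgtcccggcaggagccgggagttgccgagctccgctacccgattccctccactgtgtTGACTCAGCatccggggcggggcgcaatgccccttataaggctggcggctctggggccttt
Cyp3a2: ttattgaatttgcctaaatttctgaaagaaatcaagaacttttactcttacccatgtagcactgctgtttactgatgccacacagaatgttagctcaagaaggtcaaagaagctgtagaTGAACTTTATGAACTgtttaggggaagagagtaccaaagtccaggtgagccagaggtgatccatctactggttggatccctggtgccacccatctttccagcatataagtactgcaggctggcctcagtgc
Cyp3a23-3a1: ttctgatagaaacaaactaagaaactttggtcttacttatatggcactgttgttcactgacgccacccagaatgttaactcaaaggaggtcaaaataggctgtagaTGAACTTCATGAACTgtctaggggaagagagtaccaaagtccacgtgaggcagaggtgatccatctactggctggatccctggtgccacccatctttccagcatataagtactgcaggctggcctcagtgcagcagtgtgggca
The Gstp1 match lies at -61 to -53 from the start, the Cyp3a2 repeat at -131 to -117 and the Cyp3a23-3a1 repeat at -144 to -130. Searched on both strands of 27457 promoter windows of this length, TGACNNNGC was found in 2793 (10.2%) and the DR3 in 2 (0.00728%), these same Cyp3a genes. The DR3 was searched in 1 exact spelling, and the motifs were chosen with earlier results of these data known. Its count therefore does not measure how particular such repeats are to these genes. The 2 Cyp3a windows are close copies of each other, with 203 of 227 aligned bases identical (89.4%), so their matches are not independent. Of the 25 called genes with a promoter in the table, 4 held TGACNNNGC, namely Gstp1 and Haao among genes higher with D3T and Agtr1a and Rfk among genes higher with OLT. Other motifs were as follows: GCGTG, the dioxin response core, stood in 6 of 25 and in 27.2% of all windows, the half-site AGGTCA in 8 of 25 and 13.7%, and ATTGG, the inverted CCAAT box, in 10 of 25 and 34.3%. The sterol response element TCACCCCAC (0.419% of windows) and a direct repeat of AGTTCA with a gap of 4 bases (0.0146%) were in 0 of 25. Sequence farther than 250 bases before the start was not searched, so a motif absent here may lie outside the window. For the same reason a match here need not be the gene's only one. A match describes letters in a window and is not a measured binding site, and motifs such as AGGTCA and TGACNNNGC can overlap.

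Among NRF2 target genes the compounds differed at Gstp1 above all. Gstp1 stood at 12.36, 12.02, 12.57 and 13.10 on the D3T arrays. It stood at 9.36, 6.61, 8.92 and 8.43 on the OLT arrays and at 6.02 to 6.33 with vehicle. Every D3T array exceeded every OLT array by more than 2 log2 units, and every OLT array exceeded every vehicle array. The level with D3T was 18.2-fold higher than with OLT (difference 4.18 ± 0.59, 95% interval 2.93 to 5.44, adjusted p = 0.00232, limma, n = 4 per group). Against vehicle, Gstp1 rose 83.2-fold with D3T (adjusted p = 1.1e-05) and 4.58-fold with OLT (adjusted p = 0.0252). A second Gstp1 probe set differed by 6.91 ± 1.02 (adjusted p = 0.00309), with 2 of the 4 OLT arrays below their array's median, so that difference rests on a dim level, and there OLT minus vehicle was 1.51 ± 1.02 (adjusted p = 0.457).

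Other classic NRF2 targets did not pass the test between the compounds. Nqo1, the quinone reductase, stood at 8.29, 8.13, 7.29 and 8.23 with D3T and at 7.53, 5.19, 7.03 and 6.36 with OLT, and the groups overlapped at D3T array 3 and OLT array 1. Its difference was 1.46 ± 0.69 (interval -0.02 to 2.93, adjusted p = 0.415, limma). Akr7a3, an aldo-keto reductase that detoxifies aflatoxin aldehyde, stood at 13.45, 12.79, 13.13 and 13.55 with D3T and at 12.76, 11.01, 12.65 and 12.35 with OLT. These groups did not overlap, yet by a narrow margin, and the difference of 1.04 ± 0.32 (interval 0.36 to 1.72) had an adjusted p of 0.158. Gsta3, an alpha-class glutathione transferase, differed by 1.22 (interval 0.26 to 2.18, adjusted p = 0.268), with OLT arrays between 9.08 and 11.47 and D3T arrays between 11.08 and 12.01. Nqo1 rose 12.3-fold over vehicle with D3T (adjusted p = 0.00226), and OLT minus vehicle was 2.16 ± 0.69 without passing (adjusted p = 0.0581). Against vehicle Akr7a3 and Gsta3 rose with both compounds, Akr7a3 by 27.3-fold and 13.3-fold with D3T and OLT (adjusted p = 6.08e-07 and 1.22e-05). Vehicle Gsta3 lay below the array median on all 4 arrays, so its folds over vehicle depend on the background model and are not given.

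Several NRF2 targets had nearly the same mean level with both compounds, within intervals that still admit sizeable differences. Ephx1, microsomal epoxide hydrolase, averaged 12.95 ± 0.23 (SD) with D3T and 12.91 ± 0.30 with OLT, and its interval of -0.35 to 0.44 was the narrowest of the always-named NRF2 targets. It rose against vehicle with both (3.37-fold and 3.27-fold, adjusted p = 3.69e-05 and 8.54e-05). Gclc and Gclm, the catalytic and modifier subunits of the enzyme that starts glutathione synthesis, differed by 0.21 (interval -0.93 to 1.34) and 0.00 (interval -0.64 to 0.64). The thioredoxin reductase Txnrd1 differed by -0.06 (interval -1.02 to 0.89). The signs of these last 4 small differences turned under other settings. Unlike Ephx1, the genes Gclc, Gclm and Txnrd1 passed against vehicle with neither compound at these probe sets (adjusted p 0.157 to 0.908, limma). Another Gclm probe set fell with D3T against vehicle (-1.68, adjusted p = 0.0318) and differed between the compounds by -0.82 (adjusted p = 0.528). A further Gclm probe set passed in neither comparison (-0.08 in both). Nfe2l2, which encodes NRF2 itself and was chosen for naming with its values known, was at 5.40 to 6.47 with D3T and 6.49 to 7.49 with OLT (-1.05, interval -1.72 to -0.37, adjusted p = 0.146), the groups just apart.

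Of 25 NRF2 targets tested, 1 was higher with D3T (Gstp1) and 1 with OLT (Abcc2), against 0.29% and 0.58% of all genes, and 23 did not pass. Their median difference was 0.16, against 0.07 for all genes tested, and 4 lay with D3T arrays wholly above OLT arrays, against 3.29% of all genes. Against vehicle 12 of the 25 rose and 1 fell with D3T, and 10 rose with OLT, where 4.61% and 2.61% of all genes rose. The OLT animals differed among themselves in these genes. OLT array 1 gave the highest of the 4 OLT values for 17 of the 25 targets and OLT array 2 the lowest for 15, whereas over all genes OLT array 1 was highest for 23.9% and OLT array 2 lowest for 20.3%. On the D3T side array 4 was highest for 15 of 25, against 9.99% of all genes. Among 15 glutathione transferases, which overlap this list, Gstp1 alone passed, the median was 0.18, and 9 rose with D3T and 8 with OLT against vehicle.

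**Figure D3:**
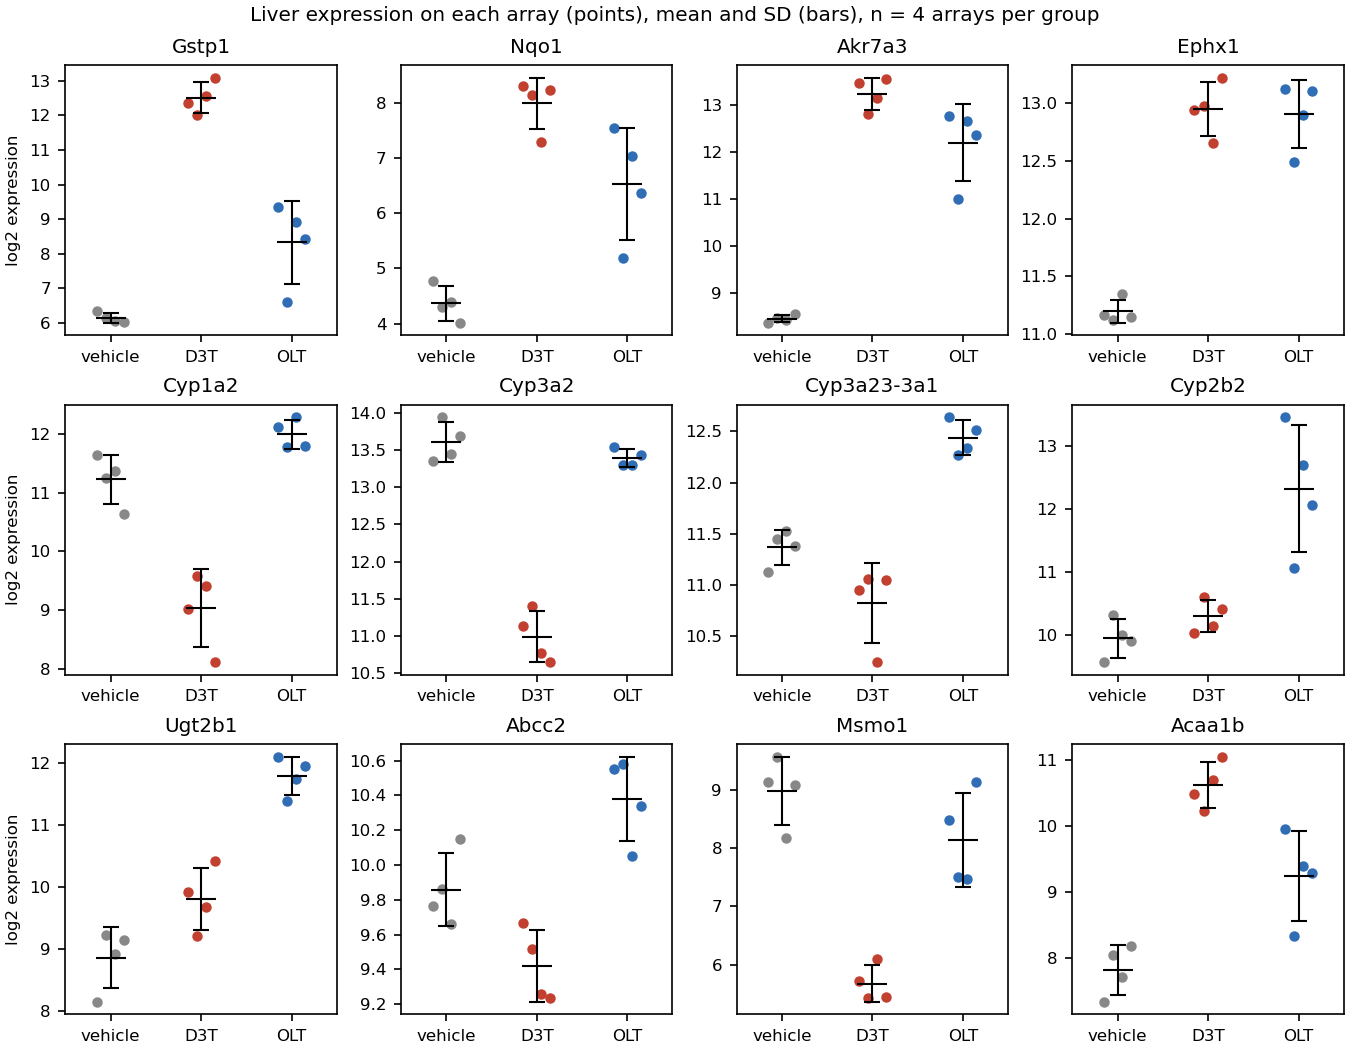
Each panel plots log2 expression of 1 gene on every vehicle, D3T and OLT array (points), with the mean and SD (bars, n = 4 arrays per group) and a vertical axis fitted to that gene. Gstp1 separates the compounds by 4.18 while Ephx1 does not separate them (0.04). Cyp1a2, Cyp3a2 and Msmo1 are lowest with D3T, and Cyp2b2 and Ugt2b1 are high with OLT.

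Of the 18 genes higher with OLT, 5 were drug-metabolising cytochromes P450: Cyp1a2, Cyp3a2, Cyp3a23-3a1, Cyp2b2 and Cyp2c6v1. Cyp1a2, which oxidises caffeine and aromatic amines, stood at 9.03, 9.58, 9.42 and 8.11 with D3T. With OLT it stood at 12.11, 11.77, 12.29 and 11.80, and with vehicle at 10.65 to 11.65. The D3T arrays lay below all vehicle arrays and the OLT arrays above them. Cyp1a2 was 7.79-fold higher with OLT than with D3T (difference -2.96 ± 0.28, interval -3.56 to -2.36, adjusted p = 6.68e-05, limma). Its other 2 probe sets differed by -3.54 ± 0.27 and -4.48 ± 0.47. Against vehicle it fell 4.58-fold with D3T (adjusted p = 0.000155), and with OLT the difference was 0.77 ± 0.28 (adjusted p = 0.0997). The probe set at -3.54 rose over vehicle with OLT (1.37 ± 0.27, adjusted p = 0.00473), and the one at -4.48 stood 1.24 ± 0.47 above it (adjusted p = 0.113).

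The CYP3A genes whose promoters are shown above were also higher with OLT. Cyp3a2, a male-predominant steroid hydroxylase, stood at 11.14, 11.41, 10.77 and 10.64 with D3T and at 13.54, 13.30, 13.29 and 13.44 with OLT. The OLT arrays lay tightly together near the vehicle range of 13.35 to 13.95, and the D3T arrays lay well below both. The difference was -2.40 ± 0.19, or 5.28-fold (adjusted p = 1.23e-05, limma). Cyp3a2 fell 6.14-fold with D3T against vehicle (adjusted p = 1.35e-06), and OLT minus vehicle was -0.22 ± 0.19. Cyp3a23-3a1 stood at 10.95, 11.05, 10.25 and 11.05 with D3T and at 12.64, 12.27, 12.33 and 12.51 with OLT. At this brightest probe set it moved in opposite directions, falling 1.46-fold with D3T (adjusted p = 0.0461) and rising 2.09-fold with OLT (adjusted p = 0.0018) against a vehicle range of 11.13 to 11.53. Between the compounds it differed by -1.61 ± 0.18 (3.05-fold, adjusted p = 0.000189), and its other 3 probe sets were called the same way at -1.89, -1.61 and -1.05. Against vehicle none of these 3 passed in both directions: those at -1.89 and -1.61 fell with D3T (-1.28 and -1.61) while OLT minus vehicle was 0.61 (adjusted p = 0.0742) and 0.00, and that at -1.05 rose with OLT (0.92, adjusted p = 0.0027) while D3T minus vehicle was -0.13. Short probes of close relatives can cross-hybridise, so values of single CYP3A, CYP2B and glutathione transferase members are uncertain.

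Cyp2b2 and Ugt2b1 were higher with OLT. Cyp2b2, the phenobarbital-inducible P450, stood at 10.04 to 10.61 with D3T and at 13.45, 11.07, 12.70 and 12.06 with OLT, so that OLT array 2 came close to the D3T arrays. Its difference of -2.02 ± 0.44 (4.05-fold, adjusted p = 0.0425, limma) was lost when OLT array 1, 3 or 4 or any D3T array was left out (adjusted p 0.0719 to 0.124), while a second probe set differed by -2.86 ± 0.50 (adjusted p = 0.0113). Cyp2b2 rose 5.16-fold over vehicle with OLT (adjusted p = 0.00316), and D3T minus vehicle was 0.35 ± 0.44. The glucuronosyltransferase Ugt2b1, which conjugates drugs and steroids, stood at 9.92, 9.22, 9.69 and 10.41 with D3T and at 12.10, 11.39, 11.75 and 11.95 with OLT. It rose with both compounds, 1.93-fold with D3T (adjusted p = 0.0278) and 7.66-fold with OLT (adjusted p = 2.44e-05), and the direct difference was -1.99 ± 0.28 (3.96-fold, adjusted p = 0.00232).

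Of 21 CAR and PXR targets tested, 6 were higher with OLT and 0 with D3T at the adjusted threshold, against 0.58% and 0.29% of all genes. The 6 were Cyp3a2, Cyp2b2, Ugt2b1, Cyp3a23-3a1, Abcc2 and Cyp2c6v1. The 21 targets had a median difference of -0.20, and in 9 of them the OLT arrays lay wholly above the D3T arrays, against 4.19% of all genes. The OLT animals were not uniform in these targets. OLT array 1 gave the highest OLT value for 15 of the 21 and OLT array 2 the lowest for 13, against 23.9% and 20.3% over all genes. Cyp2c6v1, a drug-metabolising CYP2C enzyme singled out after its values were seen, ran from 12.33 to 12.74 with D3T and from 12.98 to 13.62 with OLT (-0.80 ± 0.16, adjusted p = 0.0272). Its other probe set overlapped between the compounds (-0.55, adjusted p = 0.175) and rose with OLT against vehicle (0.97 ± 0.17, adjusted p = 0.00253). Its call was lost without D3T array 1, 3 or 4 or OLT array 1, 3 or 4 (adjusted p 0.0676 to 0.0889). Alas1, the first enzyme of heme synthesis and also on this list, lay the other way without passing: OLT array 1 at 10.22 lay within the D3T range of 10.10 to 10.57, and the other 3 OLT arrays were at 8.45 to 8.97 (difference 1.22, adjusted p = 0.265). Among 13 glucuronosyltransferases and sulfotransferases Ugt2b1 alone passed, with a list median of -0.40. Sult2a1, the hydroxysteroid sulfotransferase, also singled out after its values were seen, fell against vehicle with both compounds (-2.80 with D3T, -1.45 with OLT) and differed between them by -1.35 (interval -2.17 to -0.52, adjusted p = 0.119). Of 22 P450s outside these lists 0 passed limma's threshold (8 had an unadjusted p below 0.05, against 12% of all genes), and their median was -0.08.

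The canalicular transporters Abcc2 and Abcb4 were both higher with OLT. Abcc2, which exports glutathione and glucuronide conjugates into bile and is a target of both NRF2 and PXR, stood at 9.67, 9.52, 9.26 and 9.24 with D3T and at 10.55, 10.58, 10.05 and 10.34 with OLT. The OLT arrays exceeded all D3T arrays (-0.96 ± 0.15, 1.94-fold, adjusted p = 0.00438, limma), and Abcc2 rose over vehicle with OLT (0.52 ± 0.15, adjusted p = 0.0353). Abcb4, which exports phosphatidylcholine into bile, ran from 6.21 to 7.32 with D3T and from 7.45 to 7.96 with OLT (-1.10 ± 0.23, adjusted p = 0.0285), and it fell against vehicle with D3T (-0.83, adjusted p = 0.0187). The Abcb4 call was lost without D3T array 1, 2 or 4 or OLT array 2, 3 or 4 (adjusted p 0.0585 to 0.0961). Of 21 genes that make or move bile acids these 2 alone passed, where 0.58% of all genes were higher with OLT, and the list median was -0.21. Cyp7a1, which catalyses the first step from cholesterol to bile acids, varied widely with OLT, from 4.99 to 8.44, across the D3T range of 5.67 to 6.69 (-0.40, interval -1.76 to 0.95).

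Genes of cholesterol synthesis were lower with D3T in most cases, and 1 passed the test. Msmo1, the sterol-C4-methyl oxidase, stood at 5.72, 5.42, 6.10 and 5.45 with D3T and at 8.48, 7.51, 7.47 and 9.14 with OLT. The D3T arrays lay more than 1 log2 unit below every OLT array, and vehicle ran from 8.17 to 9.56. Msmo1 differed by -2.48 ± 0.37 (5.58-fold, adjusted p = 0.00309, limma), and a second probe set by -2.20 ± 0.38 (adjusted p = 0.00924). It fell 10.0-fold with D3T against vehicle (adjusted p = 4.99e-05), and OLT minus vehicle was -0.84 ± 0.37 (adjusted p = 0.174). Of 14 genes of the pathway tested, 12 had a difference below 0, against 33.4% of all genes. The median was -0.62 against 0.07 for all genes, and in 6 the D3T arrays lay wholly below the OLT arrays, against 4.19% of all genes. Against vehicle 8 of the 14 fell with D3T, where 13.1% of all genes fell, and 3 fell and 1 rose with OLT, where 8.92% and 2.61% did. Insig1, the sterol-regulated retention protein, differed by -1.92 (interval -3.21 to -0.64, adjusted p = 0.169) and the last reductase Dhcr7 by -1.18 (adjusted p = 0.175). The lanosterol demethylase Cyp51 differed by -1.23 (adjusted p = 0.0942, with 0.0276 without OLT array 3 and up to 0.236 under other settings). The values of Insig1 and Dhcr7 were known before both were singled out. OLT array 4 gave the highest OLT value for 10 of the 14 genes and OLT array 3 the lowest for 10, against 18.6% and 16.1% over all genes. Of 12 lipogenic genes 0 passed limma's threshold (1 at an unadjusted p below 0.05, against 12% of all genes), and their median was 0.13.

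**Figure D4:**
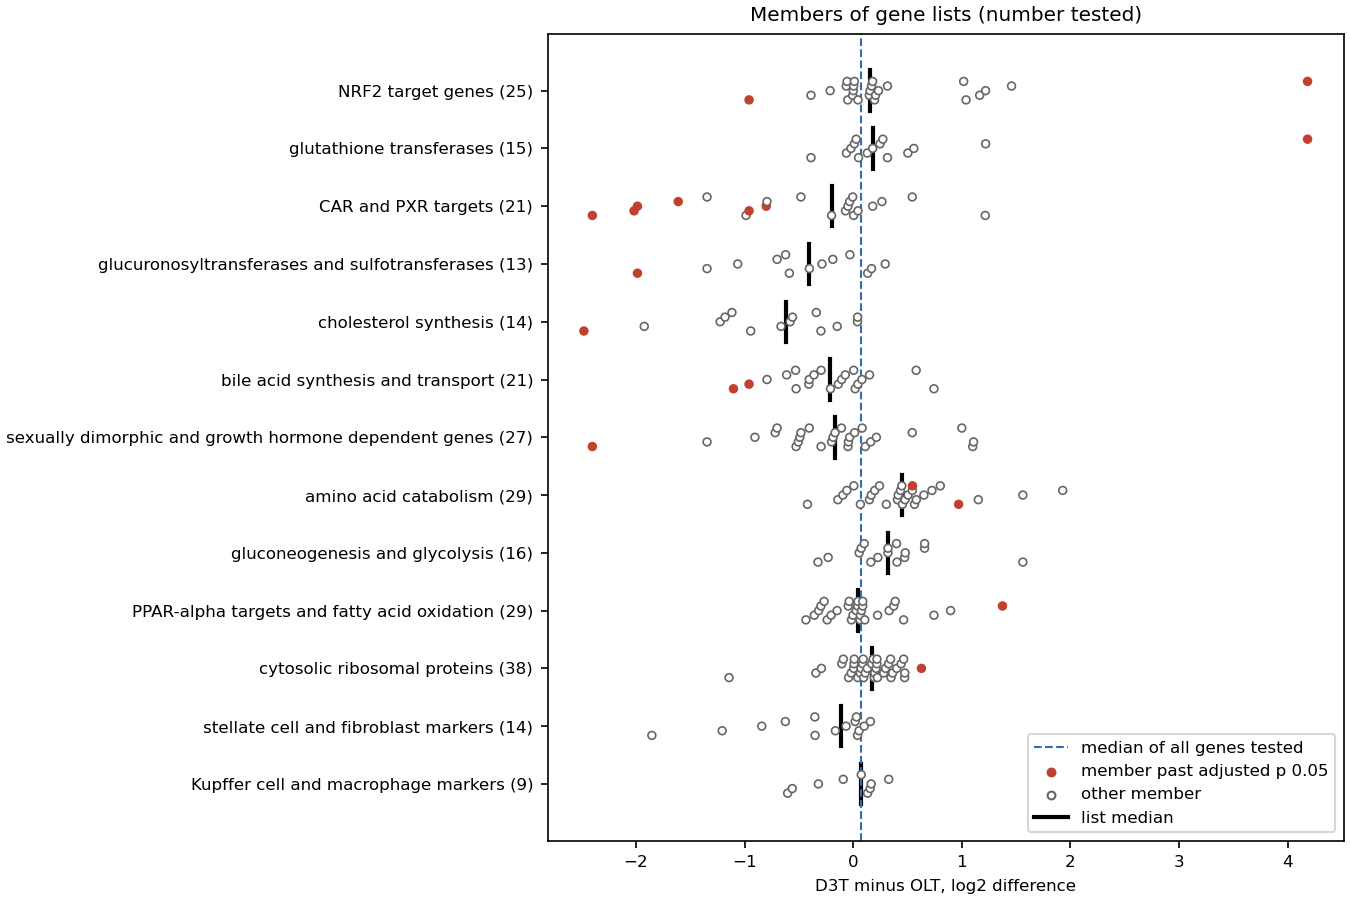
Each row plots the log2 difference D3T minus OLT of every tested member of 1 gene list, with the list median as a black bar, members past the adjusted p in red and the median of all genes (0.07) as a dashed line. The cholesterol synthesis median lies at -0.62 with all members left of the dashed line, and the amino acid catabolism median lies at 0.45. In the CAR and PXR list all 6 red members lie to the left.

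Of 29 enzymes that break down amino acids, 2 passed, both higher with D3T, against 0.29% of all genes. A difference above 0 was found for 25 of the 29 and for 66.6% of all genes. The median was 0.45, against 0.07 for all genes, and in 10 the D3T arrays lay wholly above the OLT arrays, against 3.29% of all genes. OLT array 3 gave the lowest OLT value for 18 of the 29 and D3T array 2 the highest D3T value for 17, against 16.1% and 26.3% over all genes. The median was 0.29 without OLT array 3, and 0 to 10 members were higher with D3T across settings. The 2 that passed in the main fit were Prodh2 and Haao. Prodh2, hydroxyproline dehydrogenase, stood at 9.07, 9.11, 8.88 and 8.63 with D3T and at 8.11, 8.06, 7.26 and 8.38 with OLT (0.97 ± 0.21, 1.96-fold, adjusted p = 0.0392, limma). It fell with OLT against vehicle (-0.85 ± 0.21, adjusted p = 0.0163), and D3T minus vehicle was 0.12 ± 0.21. Haao, an enzyme of the kynurenine pathway, instead rose with D3T (0.88 ± 0.12, adjusted p = 0.000265), and it differed between the compounds by 0.55 ± 0.12 (adjusted p = 0.0494), or 0.65 at a second probe set (adjusted p = 0.0272). Both calls lay near the threshold and were lost when most of the arrays were left out singly. Prodh2 lost it without any 1 of the D3T arrays or OLT array 1, 2 or 3 (difference 0.74 to 1.07, adjusted p 0.0519 to 0.118). Haao lost it without any 1 of the OLT arrays or D3T array 1, 2 or 4 (difference 0.49 to 0.61, adjusted p 0.0543 to 0.156). Over the list, 14 of 29 fell and 1 rose with OLT against vehicle, where 8.92% and 2.61% of all genes did. With D3T 5 fell and 2 rose, near the shares of all genes (13.1% and 4.61%).

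Sds, serine dehydratase, was at the edge of the threshold. Its brightest probe set stood at 11.50, 11.28, 10.86 and 11.40 with D3T and at 9.17, 10.02, 9.99 and 8.15 with OLT, without overlap (1.93 ± 0.44, adjusted p = 0.0502, limma, with 0.0472 without OLT array 2 and up to 0.144 under other settings). Its other 2 probe sets were called, at 3.44 ± 0.50 (adjusted p = 0.00286) and 2.57 ± 0.50 (adjusted p = 0.0251), and the first of these was below the array median on 1 OLT array. Sds fell with OLT against vehicle (-2.21 ± 0.44, adjusted p = 0.00473), and D3T minus vehicle was -0.28 ± 0.44. The liver glutaminase Gls2 ran from 9.02 to 9.71 with D3T and from 7.52 to 8.75 with OLT (1.15 ± 0.26, adjusted p = 0.0502, with 0.0313 without OLT array 1 and up to 0.153 under other settings). Got1, the cytosolic aspartate aminotransferase, ran from 7.57 to 7.91 and from 5.45 to 6.85 (1.56, adjusted p = 0.265), and it fell against vehicle with both compounds (-1.82 with D3T, -3.38 with OLT). Sds and Gls2 were chosen for naming with their values known. Of 16 genes of gluconeogenesis and glycolysis, among them Got1, 0 passed limma's threshold, with a median of 0.32, and of 5 urea cycle genes 0 passed. At an unadjusted p below 0.05 were 6 of the 16 and 2 of the 5, against 12% of all genes.

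The remaining 6 genes higher with D3T, beside Gstp1, Prodh2 and Haao, included enzymes of fatty acid and ketone metabolism. Acaa1b, a peroxisomal thiolase of fatty acid oxidation, stood at 10.49, 10.23, 10.71 and 11.05 with D3T and at 9.96, 8.33, 9.40 and 9.28 with OLT. It rose with both compounds over a vehicle range of 7.34 to 8.19, by 2.80 ± 0.30 with D3T and 1.42 ± 0.30 with OLT, and the direct difference was 1.37 ± 0.30 (2.59-fold, adjusted p = 0.0403, limma). Acaa1b was the 1 gene called among 29 PPAR-alpha targets and fatty acid oxidation genes, whose median was 0.04. Acat1, the mitochondrial acetoacetyl-CoA thiolase, ran from 9.83 to 10.26 with D3T and from 9.02 to 9.42 with OLT (0.88 ± 0.18, adjusted p = 0.0272). Its other 2 probe sets differed by 0.83 and 0.40 without passing (adjusted p = 0.111 and 0.322), nor did they pass for OLT against vehicle (adjusted p = 0.0809 and 0.656). Slc25a10, the mitochondrial dicarboxylate carrier, ran from 9.78 to 10.02 and from 8.96 to 9.65 (0.64 ± 0.14, adjusted p = 0.0355). Its other probe sets differed by 1.06 (adjusted p = 0.115) and, at a dim level, by -0.16. Acat1 and Slc25a10, like Prodh2, fell with OLT against vehicle at their brightest probe sets (-0.98 and -0.53) and D3T minus vehicle was -0.10 and 0.11. Without D3T array 3 or 4 or OLT array 2, 3 or 4 the calls of all 3 genes Acaa1b, Acat1 and Slc25a10 were lost, also without D3T array 1 for Acaa1b and Slc25a10 and D3T array 2 for Acat1 and Slc25a10 (adjusted p 0.063 to 0.114 over the 3 genes).

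Igf2, Pebp1 and Rplp0 completed the D3T side. Igf2, a fetal growth factor, stood at 6.72, 6.84, 7.10 and 6.45 with D3T and at 5.22, 6.13, 5.96 and 5.81 with OLT (1.00 ± 0.22, adjusted p = 0.044, limma), and rose over vehicle with D3T (1.37 ± 0.22, adjusted p = 0.000748). Pebp1, an inhibitor of RAF kinase, ran from 11.19 to 11.54 with D3T and from 10.34 to 10.76 with OLT (0.79 ± 0.14, adjusted p = 0.013), and rose over vehicle with D3T (0.89 ± 0.14). Its other probe set differed by 0.40 (adjusted p = 0.269). The call held without any single array and was lost after the array medians were centred (0.71, adjusted p = 0.0578). Rplp0, a ribosomal stalk protein, rose with both compounds (1.29 with D3T, 0.66 with OLT) and differed by 0.63 ± 0.14 (adjusted p = 0.044). The other 37 of 38 ribosomal protein genes did not pass, and the list median was 0.18. The Igf2 call was lost without any 1 of the D3T arrays or OLT array 1, 3 or 4 (adjusted p 0.0521 to 0.141), and the Rplp0 call without D3T array 1, 3 or 4 or OLT array 2, 3 or 4 (adjusted p 0.0944 to 0.135).

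The remaining genes higher with OLT had varied roles. Agtr1a, the angiotensin II receptor, ran from 7.80 to 8.31 with D3T and from 8.88 to 9.36 with OLT (-1.02 ± 0.18, adjusted p = 0.00988, limma). Of its other 3 probe sets 1 was called (-1.22, adjusted p = 0.00369), and -0.72 and -1.11 did not pass (adjusted p = 0.10 and 0.127). Tjp1, the tight junction protein ZO-1, ran from 5.62 to 5.95 and from 6.64 to 7.14 (-1.06 ± 0.18, adjusted p = 0.00924). Both fell against vehicle with D3T (-1.10 and -1.20) and were near vehicle with OLT (-0.08 and -0.14). Rfk, riboflavin kinase, ran from 6.14 to 6.89 with D3T and from 7.44 to 8.28 with OLT, above a vehicle range of 4.28 to 5.85, and rose with both compounds (1.24 and 2.70). Its direct difference was -1.45 ± 0.29 (2.74-fold, adjusted p = 0.0272), and the call was lost without D3T array 2, 3 or 4 or OLT array 1, 3 or 4 (adjusted p 0.0614 to 0.0862). Efna1, a ligand of Eph receptors, ran from 6.00 to 6.93 and from 7.43 to 8.23 (-1.24 ± 0.22, adjusted p = 0.0113), and its other probe set, dim with D3T, differed by -1.69 (adjusted p = 0.0994). Map3k1, a kinase of the JNK cascade, differed by -0.999 ± 0.20 (adjusted p = 0.0272) and rose over vehicle with OLT (1.01 ± 0.20), and Id2, an inhibitor of helix-loop-helix transcription factors, differed by -1.16 ± 0.25 (adjusted p = 0.0435). The other 2 Map3k1 probe sets did not pass between the compounds (-0.65 and -0.71, adjusted p = 0.287 and 0.119), and the latter fell with D3T against vehicle (-0.68, adjusted p = 0.0278) with OLT at 0.028. The Map3k1 call was lost without D3T array 1, 2 or 4 or OLT array 1, 2 or 4 (adjusted p 0.0582 to 0.0864), and the Id2 call without any 1 of the D3T arrays or OLT array 1, 2 or 4 (adjusted p 0.079 to 0.119).

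Dab2, Lgals3 and Dhx36 were also higher with OLT. Dab2, an endocytic adaptor, ran from 4.58 to 5.65 with D3T and from 5.78 to 6.85 with OLT (-1.18 ± 0.23, adjusted p = 0.0242, limma). The Dab2 call was lost without D3T array 1, 3 or 4 or OLT array 4 (adjusted p 0.0607 to 0.0728). Lgals3, galectin-3, fell against vehicle with both compounds (-1.59 with D3T, -0.77 with OLT) and differed by -0.82 ± 0.18 (adjusted p = 0.0403). The helicase gene Dhx36 was dim, at 4.05 to 4.20 with D3T and 4.34 to 5.29 with OLT (-0.71 ± 0.16, adjusted p = 0.044), and its other probe set differed by 0.22 in the opposite direction. Lgals3 and Dhx36 were chosen for naming with their values known, and each was lost without any 1 of the D3T arrays or 3 of the OLT arrays, 1, 2 and 4 for Lgals3 (adjusted p 0.0569 to 0.129) and 1, 3 and 4 for Dhx36 (adjusted p 0.0865 to 0.124). Hspb1, a small heat shock protein, was at 3.76 to 3.88 on the D3T arrays, the vehicle level, and at 6.17, 5.23, 3.94 and 5.56 on the OLT arrays. Its difference of -1.40 had an adjusted p of 0.0761, with 0.000762 without OLT array 3 and up to 0.199 under other settings.

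Against vehicle the 27 genes, each at its brightest probe set, fell into several classes, and other probe sets would place several of them differently, among these Cyp1a2, Cyp2c6v1, Cyp3a23-3a1, Gstp1, Acat1, Slc25a10, Agtr1a, Dhx36 and Map3k1. Of the 18 genes higher with OLT, 6 had fallen with D3T alone (Abcb4, Agtr1a, Cyp1a2, Cyp3a2, Msmo1 and Tjp1) and 4 had risen with OLT alone (Abcc2, Cyp2b2, Dhx36 and Map3k1). Rfk and Ugt2b1 rose with both, Lgals3 fell with both, Cyp3a23-3a1 moved in opposite directions, and Cyp2c6v1, Dab2, Efna1 and Id2 passed against vehicle with neither. Of the 9 genes higher with D3T, Haao, Igf2 and Pebp1 had risen with D3T alone, Acat1, Prodh2 and Slc25a10 had fallen with OLT alone, and Acaa1b, Gstp1 and Rplp0 rose with both. "Alone" here means past the threshold in 1 of the 2 vehicle comparisons, and only the direct contrast tests the difference. The mean of the TBD arrays lay nearer to OLT than to D3T for 25 of the 27 genes and for 69.1% of all genes tested, the exceptions among the 27 being Cyp1a2 (9.46 with TBD) and Dhx36 (4.20). For 3 of the 25 it lay about as far from both: Gstp1 (2.08 from OLT, 2.11 from D3T), Haao (0.25 and 0.29) and Rplp0 (0.30 and 0.32). For 9 genes the call held under all 22 alternative settings run: Abcc2, Agtr1a, Cyp1a2, Cyp3a2, Cyp3a23-3a1, Gstp1, Msmo1, Tjp1 and Ugt2b1.

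Markers of other liver cells were measured beside these genes. In bulk tissue, fewer cells of a type and less RNA per cell cannot be told apart. None of the 8 marker lists had a member past limma's threshold. At an unadjusted p below 0.05, where 5.57% of all genes were lower and 6.41% higher with D3T, 3 of 14 stellate, 2 of 5 endothelial and 2 of 2 red blood cell markers were lower with D3T, as were 2 of 9 macrophage markers, with 1 higher, and 2 of 9 hepatocyte markers were higher. The mean over 14 stellate cell and fibroblast markers ran from 5.67 to 5.80 on the D3T arrays and from 5.93 to 6.32 on the OLT arrays, and that over 5 sinusoidal endothelial markers from 4.72 to 5.44 and from 5.25 to 5.96. The members were mixed in direction. Of the stellate markers 8 had a difference below 0 and 6 above it (median -0.11). Of the endothelial markers 3 lay below 0 and 2 above it (median -0.42). Over all genes 33.4% lay below 0. Col1a1, the collagen gene, lay below the array median on all 4 D3T arrays and ran from 3.16 to 7.05 with OLT, against 6.59 to 7.47 with vehicle (-1.85, interval -3.24 to -0.46, adjusted p = 0.235). Its other probe set, dim in both groups (means 3.56 with D3T and 3.51 with OLT), differed by 0.05 ± 0.14 (adjusted p = 0.867). Lyve1, a sinusoidal endothelial receptor, ran from 4.92 to 6.08 with D3T and from 6.16 to 6.96 with OLT (-1.16, adjusted p = 0.105), and Fcgr2b, singled out after its values were seen, differed by -1.05 (adjusted p = 0.144). The hemoglobin genes Hbb-b1 and Hbb, the latter also singled out, differed by -0.73 and -0.57 without overlap, and their mean ran from 10.29 to 11.05 with D3T and from 11.20 to 11.39 with OLT. Kupffer cell and macrophage markers overlapped, at 6.53 to 6.69 and 6.43 to 6.86, although Lyz2, lysozyme, was lower on every D3T array (-0.60, adjusted p = 0.229). Hepatocyte markers ran from 13.57 to 13.67 with D3T and from 13.25 to 13.59 with OLT. All 3 cholangiocyte markers tested lay below the array median on every array of both groups. Counted in each group separately, 2 of 5 endothelial markers and 1 of 14 stellate markers lay below it on all 4 arrays. With D3T the stellate marker was Col1a1, which with OLT was below the median on 1 array only. The part of these cell types in the genes higher with OLT, Dab2, Lgals3, Efna1 and Id2 among them, was not tested.

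Of the 35 lists in all, 13 had a called member and 22 had none. Lists without a call, given with their median and the members at an unadjusted p below 0.05 (12% of all genes), included 26 proteasome subunits (median -0.12, 4 unadjusted), 42 respiratory chain genes (0.11, 10), 39 plasma proteins (0.08, 7), 26 genes of the glutathione and thioredoxin systems (0.15, 6), 21 enzymes of aldehyde, ketone and quinone metabolism (0.28, 6) and 20 xenobiotic receptors and hepatocyte transcription factors (0.10, 3). Among their largest members, Gsr, glutathione reductase, rose with D3T against vehicle (1.66 ± 0.35, adjusted p = 0.00476) and differed between the compounds by 1.02 (interval 0.26 to 1.77, adjusted p = 0.233). Other Gsr probe sets differed between the compounds by 0.54 and 0.27 (adjusted p = 0.565 and 0.72, limma). Ptgr1, prostaglandin reductase 1, singled out after its values were seen, ran from 9.78 to 10.27 with D3T and from 8.03 to 9.48 with OLT (1.16, adjusted p = 0.119). Fasn, fatty acid synthase, spread widely in both groups, from 9.26 to 10.70 and from 7.50 to 10.10 (1.23, interval -0.96 to 3.41). Among 27 genes that depend on sex or growth hormone Cyp3a2 alone passed, and the median was -0.17.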

How the data were processed

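The authors deposited log2 values of 8740 probe sets. GCRMA is the method named in the submitters' processing notes, without a version, and its output was used as it stands. GCRMA models the background from probe sequence and compresses dim values, so folds of dim genes depend on it. Scan dates were not used here, so scan batches were not tested.

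Platform annotation gave 1 symbol to 7006 probe sets, several to 308 and none to 1426; 6985 were matched through Entrez ID to the GRCr8 gene table. Probe sets with several symbols were counted and not named. Testing required a value over the 40th percentile of the array on 4 or more of the 16 arrays (3417 probe sets fell short). Of those tested, 4250 carried 1 symbol, and 863 genes had several probe sets. The model, 1 mean per group, was run in limma 3.58.1 (R 4.3.3) on all 16 arrays (residual df 12, prior df 2.41), two-sided, with Benjamini-Hochberg adjustment over 5323 probe sets. Values of n are arrays of separate animals, and the number of arrays limits the precision. In 5 simulations of D3T against OLT over 5323 probe sets, recovery was 60.3% for a 1.5-fold change (317 probe sets), 79.8% for 2-fold (321) and 98.1% for 4-fold (362), and 3.49% of 831 calls were false. Each simulation changed 200 probe sets and drew normal noise, independent between probe sets, with 1 SD per probe set for all groups. In the real arrays the OLT SD was the larger at 79.5% of probe sets, so these rates need not hold for them.

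The members, gene lists, motifs and alternatives were chosen with earlier results of these data known. The naming rule took the 15 largest called differences each way without overlap. It also took a set of genes whatever they showed (Gstp1, Gsta3, Nqo1, Akr7a3, Ephx1, Gclc, Gclm, Txnrd1, Cyp3a23-3a1, Cyp2b2, Cyp1a2, Ugt2b1 and Cyp7a1). From each list it took up to 4 called members, or the largest where none was called. Of these largest uncalled members, Tat, Ass1, Dbp, Orm1, Psma2, Ndufv2, Pcna, Anxa4, Cd2, S100a8 and Zfp354a are not described above. Other probe sets are given for the called genes. Those of several genes that did not pass are left out, Gsta3, Cyp51 and Nfe2l2 among them. A further 12 genes were chosen after their values were seen. Alternatives were other filters, scalings, priors, fits, a replicate block, array weights, thresholds and leaving out each array. Figures were drawn in Python 3.11.15 with matplotlib 3.10.9.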

Additional observations from a re-analysis of the deposited data

Results flagged for a closer look

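For 4 of 130 gene-by-group sets of 4 arrays tested, 1 array lay far from the other 3. Chance alone gives about 1 in 20 such sets. All 4 were D3T arrays. Cyp3a23-3a1 was at 10.25 on D3T array 3, with the others at 10.95 to 11.05. Nqo1 was at 7.29 on the same array, with the others at 8.13 to 8.29. Map3k1 was at 8.15 there, with the others at 7.61 to 7.69. Id2 was at 7.80 on D3T array 2, with the others at 8.03 to 8.07. Without D3T array 3, the Cyp3a23-3a1 and Map3k1 calls held, and the Id2 call was lost without D3T array 2 (adjusted p = 0.116, limma).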

How the results depend on the processing

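The main count was 57 called probe sets, 21 higher with D3T and 36 with OLT, and 27 genes. Leaving out 1 array gave 30 to 51 probe sets, 5 to 18 higher with D3T, 24 to 36 higher with OLT and 12 to 22 genes. Called probe sets numbered 36 without D3T array 1, 33 without D3T array 3, 30 without D3T array 4 and 33 without OLT array 4; genes also numbered 17 without D3T array 2, and probe sets higher with D3T 8 without OLT array 3. More were called with array weights (171; 115 higher with D3T, 56 with OLT; 90 genes), in an estimate that stopped before it converged. More were also called after quantile normalization (92; 48 higher with D3T; 51 genes) and under 2 alternatives added after seeing the data, each array's 40th percentile as a covariate (149; 109; 77 genes) and a fit without OLT replicate 1 and TBD replicate 4 (88; 39; 45 genes). Probe sets higher with D3T numbered 13 after centring of array medians, 12 in a fit on the 8 arrays alone and 13 with an intensity trend. At an adjusted p below 0.01, 23 remained by construction (3 and 20; 9 genes). The cause of the other moves was not tested.

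The replicate numbers did not pair the animals: same-numbered D3T and OLT arrays had deviations correlated at -0.20, -0.08, 0.12 and -0.09, and 1 of the 4 correlated best with its own number. With the replicate block, 55 probe sets were called (15 higher with D3T, 40 with OLT), and 26 genes, 21 of them shared with the main fit.

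Of the 27 called genes 0 changed sign. Signs turned for genes that had not passed: Cyp7a1 with array weights (0.041) and without OLT replicate 1, alone or with TBD replicate 4 (0.20; -0.95 to 0.20 without 1 array); Ephx1 after centring (-0.036) and without 1 array (-0.095 to 0.14); Gclc without 1 array (-0.055 to 0.63); Gclm after centring (-0.079), without 1 array (-0.14 to 0.30) and as the mean of its probe sets (-0.30); and Txnrd1 with the covariate (0.12), without OLT replicate 1 and TBD replicate 4 (0.15), without 1 array (-0.37 to 0.15) and as the mean of its probe sets (0.14). List medians named above kept their sign under all alternatives run, except stellate (0.01) and endothelial markers (0.09), both without OLT array 2, PPAR-alpha targets, Kupffer cell markers and plasma proteins. In the fit on the 8 arrays alone 15 of the 27 genes lost the call (adjusted p 0.0572 to 0.117), Efna1 (0.0591) among them, and 12 kept it.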

Other observations

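Probe sets of 8 genes were called although the gene's brightest probe set was not. Beside Sds, Adgrl2, an adhesion receptor, was higher with OLT (-1.11 ± 0.17, adjusted p = 0.00382, limma) and had fallen with D3T against vehicle. Ctsc, cathepsin C (-0.50), and the kinase Mapk6 (-0.99) were also higher with OLT. The thioredoxin-like Txnl1 (0.81), the respiratory chain subunit Cox8a (0.61), the kinase Mapk14 (0.58) and the tautomerase Ddt (0.58) were higher with D3T. The Mapk14 probe set was dim, at 4.34 to 4.85 with D3T and 3.81 to 4.15 with OLT. A further 11 called probe sets carried no symbol or several and are not named. These probe sets were named with their values known.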
